A study of Homo sapiens with 2 samples.

Results

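Olfactory receptor genes of chromosome 11 were examined for RUNX1 peaks in MCF10A, an established cell line from human breast epithelium that does not form tumours. They are the protein-coding genes that the GRCh38 RefSeq gene table lists on chromosome 11 with a symbol made of OR, a number, 1 or 2 letters and a number. This gave 171 genes, of which 168 lie on the chromosome sequence among 19866 placed protein-coding genes of all chromosomes. The other 3, OR8U8, OR8U9 and OR9G9, are counted on a separate sequence, so no peak could be assigned to them and they are left out below. No rule on peak values entered the choice.

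RUNX1, a transcription factor, acts on DNA as a complex with CBFB, and the study mapped its binding sites by chromatin immunoprecipitation and sequencing (ChIPseq). The cells of both libraries had their own RUNX1 deleted, carried a lentivirus that expresses RUNX1 on induction, and were given doxycycline at 1 µg/ml for 24 h. The unmodified line does not form tumours, but the study reports that RUNX1 deletion transformed it, with tumours in mice. There was 1 library from the anti-RUNX1 immunoprecipitate with 80338845 kept tags and 1 library of input DNA with 87410774, with no replicate of either, and the knockout lines of the study were grown from single-cell colonies. The 2 libraries gave 1 list of 13591 peaks, of which 700 were on chromosome 11. With 1 library of each kind no test between samples could be made, and neighbouring receptor genes share peaks, so counts and shares are set side by side without a p-value, and their intervals cover counting error only.

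Olfactory receptors are G protein-coupled receptors of the sensory neurons of the nose. Each neuron expresses 1 receptor gene from a single allele, and the other receptor genes stay silent in compact chromatin. Many of these genes have their coding sequence in a single exon and stand in tandem clusters together with pseudogenes. Class I receptors, named by the family numbers 51 to 56, resemble those of fish and recognise mostly water-soluble odorants, whereas class II receptors, families 1 to 14, make up the rest. RNA was not measured in these libraries, so whether the receptor genes are silent in MCF10A cells was not checked here.

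A gene counted as having a peak when a summit, the base of a peak with the highest tag pileup, was inside it or at most 5 kb away. Of the 168 receptor genes, 2 had a summit by this rule, a share of 1.19% (95% Wilson interval 0.327 to 4.24%). The same rule gave a summit to 25.1% of the other protein-coding genes of chromosome 11 (283 of 1129) and to 24.9% of all placed protein-coding genes (4956 of 19866). The receptors with a summit were OR52N4 and OR9G1, and in both the summit lay inside the gene. The other 166 receptor genes had none within 5 kb.

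OR52N4 is a class I receptor gene of 29487 bp at chr11:5726472-5755958. Its peak spanned chr11:5726390-5726721 and was 332 bp wide. The pileup was 30 extended ChIP tags over the summit (exact 95% Poisson interval 20.2 to 42.8). The fold enrichment, pileup over local background with 1 added to each, was 9.68, with a −log10 q of 19.5. By q it ranked 765 of the 13591 peaks. The summit at 5726490 was 18 bp inside the end of the gene with the lower coordinate, so the peak straddled that end. The input level there, which is the local background that the peak caller used, was 1 times the genome-wide background of 2.20 tags. OR56B1, which lies within the span of OR52N4, had its nearer end 9.96 kb from the same summit.

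OR9G1 is a class II receptor gene of 4790 bp at chr11:56699095-56703884, on the plus strand. Its peak at chr11:56700409-56700484 was 76 bp wide, close to the narrowest width of the list, 74 bp. The pileup was 19 tags (11.4 to 29.7), with a fold enrichment of 3.57 and a −log10 q of 3.56, which ranked 10603. The input level was 2.09 times the genome background, the highest beside any receptor gene. The summit stood 1385 bp past the gene's start. RefSeq lists OR9G1 among the other names of OR9G9, a gene of the separate sequence, and how tags that match both were placed is not given in the sources used here.

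A further pair of peaks stood downstream of OR9G1, 10.5 kb and 12.9 kb from it. Their pileups were 14 tags (7.65 to 23.5) and 21 tags (13.0 to 32.1), with fold enrichments of 4.34 and 5.86. OR9G4, the next receptor gene, was 24.5 kb from the nearer of them. These 3 peaks were the only ones in the cluster of 48 receptor genes from OR4C46 to OR5AK2.

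The promoter of OR9G1 is shown because the gene held one of the peaks, and that of OR8B12 because its gene was the nearest outside the 5 kb limit. Each runs from 250 bases before the start to 50 after it (RefSeq, GRCh38.p14), at chr11:56698845-56699144 on the plus strand for OR9G1 and at chr11:124543605-124543904 on the minus strand for OR8B12. Capitals mark the RUNX motif, searched as TGTGGT and TGCGGT on both strands.
OR9G1: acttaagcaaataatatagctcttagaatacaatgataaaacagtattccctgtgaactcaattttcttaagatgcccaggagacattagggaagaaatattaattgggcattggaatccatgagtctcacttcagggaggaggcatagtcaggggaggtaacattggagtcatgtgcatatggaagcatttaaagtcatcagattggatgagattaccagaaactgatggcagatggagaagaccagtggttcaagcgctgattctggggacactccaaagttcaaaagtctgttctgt
OR8B12: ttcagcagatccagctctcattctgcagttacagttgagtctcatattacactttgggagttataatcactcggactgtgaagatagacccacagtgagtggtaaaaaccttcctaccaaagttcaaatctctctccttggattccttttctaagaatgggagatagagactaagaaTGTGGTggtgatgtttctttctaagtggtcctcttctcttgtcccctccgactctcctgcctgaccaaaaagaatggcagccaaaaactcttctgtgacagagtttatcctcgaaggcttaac
The OR9G1 window held no match and the OR8B12 window held 1, which began 73 bases before the start. Neither window was overlapped by a peak. The summit nearest to OR8B12 was 6807 bp past its start and 5.88 kb past the gene's other end.

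RefSeq promoters were found for 135 of the 168 receptor genes, 138 windows in all. A peak overlapped 0 of the 138 by any base, against 20 of 1144 windows, or 1.75%, of the other protein-coding genes of chromosome 11. A count of 0 allows up to 3 of the 138, so a share lower than 1.75% was not detectable here. OR52N4 had no window, and its strand was not given. Whether the peak across the lower end of OR52N4 lay at its promoter was therefore not checked. The RUNX motif was present in 19.6% of the receptor windows (27 of 138, 13.8 to 27.0%), and in 20.3% of those of the other genes of the chromosome (232 of 1144) and 19.6% of all 35116 windows in the table. The receptor windows were poorer in G and C, with a median of 37% (quartiles 32.8 and 41.8%) against 62.3% (53.9 and 70%) in the other genes of the chromosome. Their median number of CG dinucleotides was 1, against 21. The shares of windows with the motif were thus close in sequences of very different composition.

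The receptor genes are short, with a median of 1103 bp and a range from 912 bp in OR4X2 to 165335 bp in OR51B5, and a longer gene has more room for a summit. Among other genes of chromosome 11 within that range, 22.3% had a summit in the gene or within 5 kb (231 of 1036, 19.9 to 24.9%). That range takes in most genes because of a few long receptors, so closer matches were set beside it. Between the 10th and the 90th percentile of receptor length it was 14.5% (58 of 400, 11.4 to 18.3%). Of the 5 other genes nearest in length to each receptor, 20.2% had a summit when averaged over receptors and 16.9% when each of these 284 genes was counted once. The average over receptors rests on few short genes used many times. CCDC85B, with a summit 4.10 kb away, was used 72 times of 840 and KRTAP5-11, with a summit inside, 30 times, so these 2 genes gave 8.57 and 3.57 points of the 20.2%. With a fold enrichment of at least 5 that average fell to 4.40%, beside 0.595% of the receptors. Without that limit, every one of these shares was above the upper end of the interval for the receptors, 4.24%.

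The shortest genes were also compared alone. Of the 92 receptors under 2 kb, 0 had a summit within 5 kb, which allows a share of up to 3.26% (3 genes of 92). Of the 67 other genes of chromosome 11 under 2 kb, 10 had one, or 14.9% (8.31 to 25.3%). The 2 receptors with a summit were thus among the 76 of 2 kb or longer.

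Within the gene bodies alone, 2 receptors, or 1.19% (0.327 to 4.24%), had a summit. The share was 13.6% of the other genes in the length range (141 of 1036). It was 7.75% of the 284 genes nearest in length, and 6.67% when averaged over receptors. Between the 10th and the 90th percentile of receptor length it was 4.5% (18 of 400). The interval of that share began at 2.87%, so it overlapped the interval of the receptors. With 50 kb on either side, 20 receptors, or 11.9% (7.84 to 17.7%), had a summit. The share was 55.3% of the other genes in the length range (573 of 1036). It was 51.1% of the 284 genes nearest in length (38.5% when averaged over receptors). Of all other genes of the chromosome it was 56.8%, and of all protein-coding genes 52.4%. The other 148 receptor genes were more than 50 kb from every summit.

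**Figure D1:**
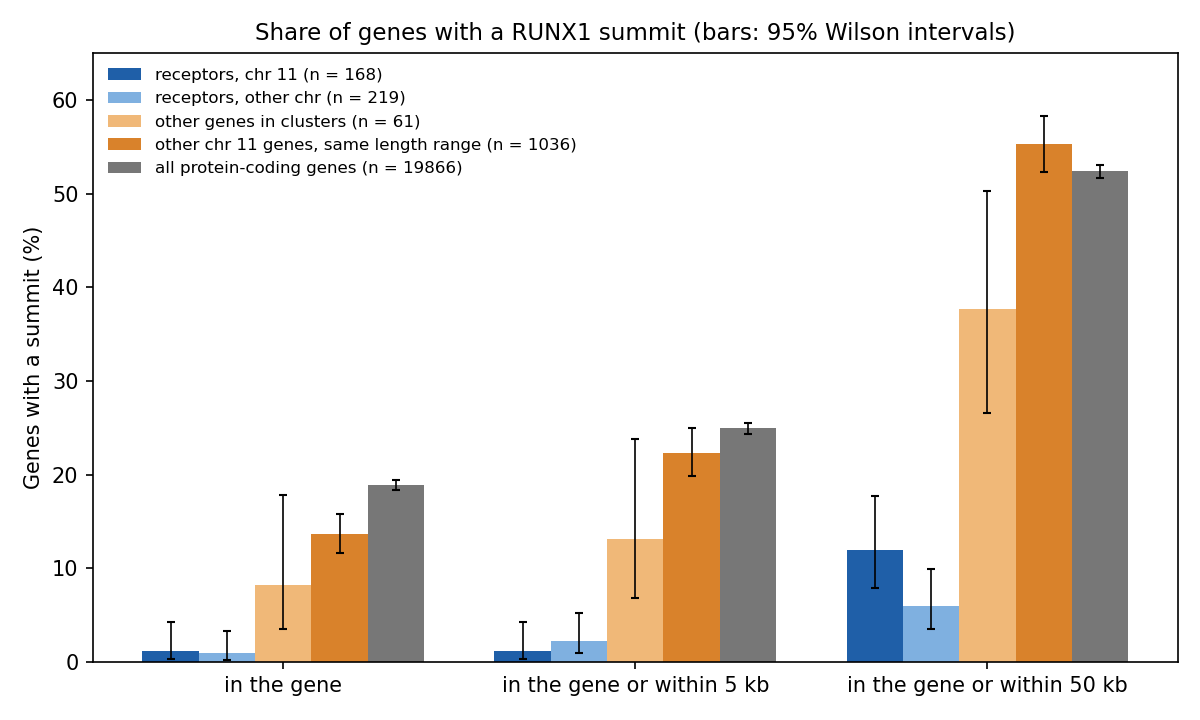
Share of genes with a RUNX1 summit in percent (vertical axis, from 0) for summits in the gene, in the gene or within 5 kb, and in the gene or within 50 kb, with 95% Wilson intervals of counting error. The receptors of chromosome 11 reached 1.19, 1.19 and 11.9%, while other genes of the chromosome in the same length range reached 13.6, 22.3 and 55.3%. The closer match from the 10th to the 90th percentile of receptor length is not drawn. It gave 4.5% in the gene, with an interval that overlapped that of the receptors.

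The distance from a gene to its nearest summit gave the spread behind these shares. For the receptors the median distance was 251.2 kb (quartiles 126 and 663 kb), against 37.3 kb (5.00 and 105 kb) for the other genes of chromosome 11 and 60.4 kb for the 5 genes nearest in length to each receptor. More than 250 kb from any summit were 85 receptors, or 50.6%, and 90 of the 1129 other genes, or 7.97%. More than 1000 kb away were 12 receptors and 2 other genes. The farthest was OR4C46, a class II gene near the centromere, at 2096 kb.

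**Figure D2:**
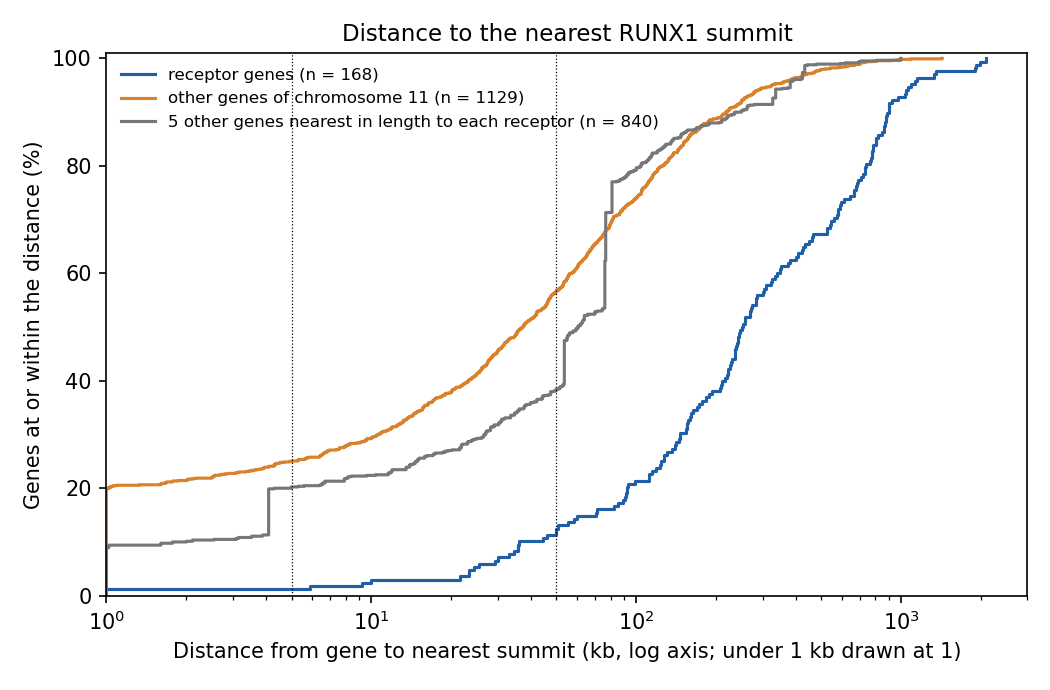
Cumulative share of genes in percent against the distance to the nearest summit in kb (log axis) for 168 receptors, 1129 other genes of chromosome 11, and the 5 other genes nearest in length to each receptor, which reuse the same 284 genes and so rise in steps. The receptor curve lies to the right, with its median at 251.2 kb against 37.3 kb for the other genes, and dotted lines mark 5 and 50 kb.

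The 2 classes of receptor were then taken apart. A summit in the gene or within 5 kb was found for 1 of 55 class I genes (1.82%, 0.322 to 9.61%) and for 1 of 113 class II genes (0.885%, 0.156 to 4.84%). Within 50 kb it was 6 of 55 (10.9%) and 14 of 113 (12.4%). The median distance was 402 kb for class I and 239 kb for class II, and the intervals of the shares overlapped widely.

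By family, the distances covered a wide range. Family 51, the class I family with 23 genes, had no summit within 50 kb of any member, and its nearest was 221 kb away, at OR51B5. Family 56 had 4 of its 7 genes within 50 kb and a median distance of 35.7 kb. These 4, OR56B1, OR56B2, OR56A1 and OR56A3, take their distance from only 2 peaks, that of OR52N4 and one 23.3 kb from OR56A1. Family 52 had 2 of 25 genes within 50 kb, OR52N4 and OR52N5. Of the larger class II families, family 5 had 4 of 34, family 8 had 2 of 22, family 4 had 2 of 24 and family 10 had 2 of 16. Family 4 had a median distance of 734 kb. For comparison, 55.3% of the other genes of chromosome 11 in the length range and 52.4% of all protein-coding genes had a summit within 50 kb.

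The receptor genes formed 7 runs when split wherever neighbours were more than 1 Mb apart, 4 of them with more than 20 genes. The runs covered 8.79 Mb and held 24 summits, or 2.73 per Mb (exact 95% Poisson interval 1.75 to 4.06), whereas the rest of the chromosome from its first to its last gene held 676 summits, or 5.36 per Mb (4.96 to 5.78). In the joined windows of 5 kb around the receptor genes the density was 0.832 per Mb (2 summits in 2.40 Mb, 0.101 to 3.01), and in those of 50 kb it was 1.99 per Mb (13 summits in 6.53 Mb, 1.06 to 3.40). The 3 intervals of these regions lay below that of the rest of the chromosome. In the joined receptor gene bodies alone, the density was 1.97 per Mb (2 summits in 1.02 Mb, 0.238 to 7.11). That interval covered the 5.21 per Mb outside the gene bodies.

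The largest run, from OR52B4 to OR10A3 on the short arm, held 67 receptors, 55 of them class I, in 3.57 Mb. It also holds 43 other protein-coding genes. It had 7 summits, or 1.96 per Mb (0.787 to 4.03). Of these, 2 were within 50 kb of a receptor. The other 5 were in or within 5 kb of SMPD1, a lysosomal enzyme, HPX, the haem carrier hemopexin, TPP1, a lysosomal peptidase, and PPFIBP2, a liprin. The tallest was inside PPFIBP2, with 39 tags and a fold enrichment of 12.5, 220 kb from the nearest receptor, OR5P2. The first 37 receptors of the run, OR52B4 to OR52B6, had no summit among them over 1359 kb.

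The run from OR4C46 to OR5AK2 on the long arm had 48 class II receptors and 2 other genes in 2.39 Mb. Its 3 summits, all within 13 kb of OR9G1, gave 1.26 per Mb (0.259 to 3.67). From OR4C46 to OR5AR1, 45 receptors in a row stood in 2097 kb without a summit. The 7 receptors from OR4B1 to OR4A47, and OR4C13 and OR4C12 on the short arm side of the centromere, had none either, nor did the lone OR2AT4, which was 92.7 kb from its nearest. At the lengths of these runs, 0.273, 0.0301 and 0.0151 Mb, 0 summits allow densities of up to 10.99, 99.5 and 198 per Mb (3 summits over the length), so a lower density was not detectable there.

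The run from OR9Q1 to OR10V1 had the highest density, with 12 summits in 1.69 Mb, or 7.10 per Mb (3.67 to 12.4), around 21 receptors and 14 other genes. Within 50 kb of a receptor were 5 of the 12, and 0 were within 5 kb. The others stood in its middle, between OR5B21 and OR5AN1, where no receptor lies, 4 of them at DTX4, a ubiquitin ligase of the Notch pathway, or the uncharacterised gene beside it. The tallest, in DTX4, had 29 tags and a fold enrichment of 9.37, 151 kb from the nearest receptor. Without this run the density of the others was 1.69 per Mb.

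The run from OR6X1 to OR8A1 had 22 receptors and 2 other genes in 0.818 Mb. Its 2 summits, or 2.45 per Mb (0.296 to 8.83), stood near its ends, one between OR6X1 and OR6M1 and one beside OR8B12. Between them lay 19 receptors, OR6M1 to OR8B8, over 753 kb.

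**Figure D3:**
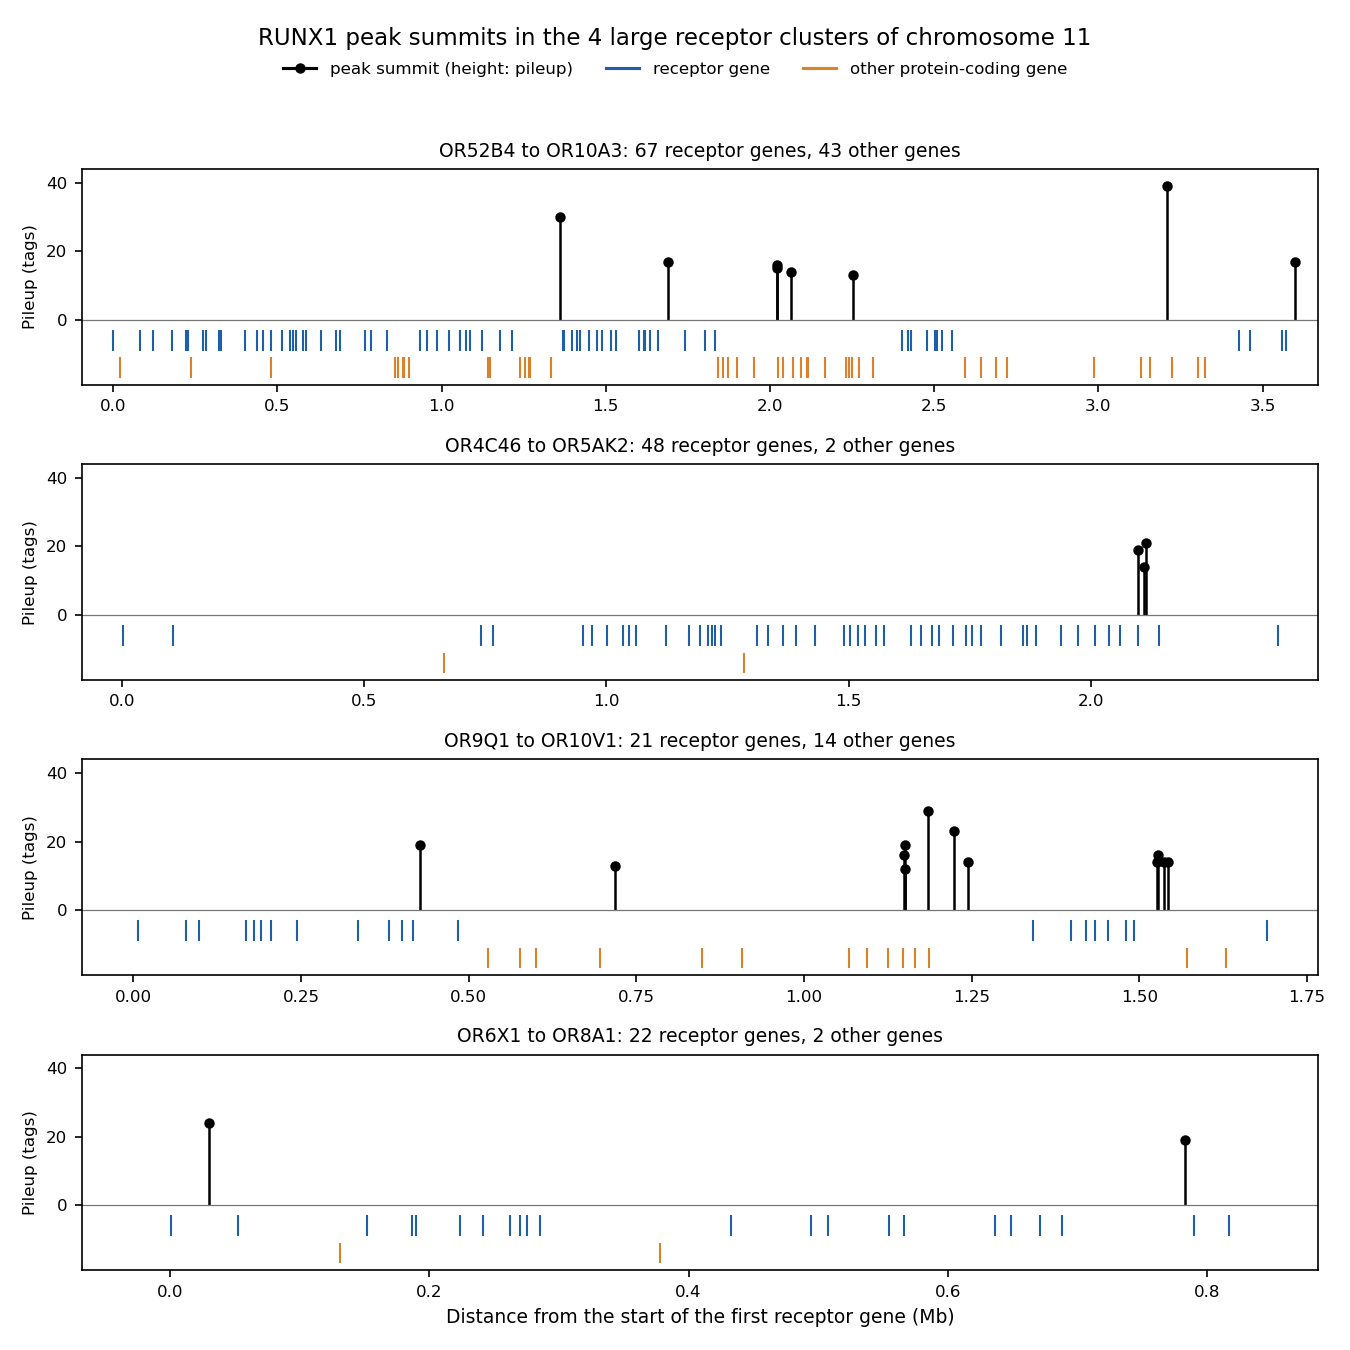
The 4 runs with more than 20 receptor genes, each against the distance in Mb from the start of its first gene. Black stems are peak summits within 50 kb of the run with the pileup in tags as height, blue ticks are receptor genes and orange ticks are other protein-coding genes. Receptors stand mostly under empty stretches, and 16 of the 24 summits in the 7 runs are nearer to another gene than to a receptor.

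Over all 24 summits in the runs, 12 were more than 50 kb from every receptor, 9 were in or within 5 kb of another protein-coding gene and 2 were inside a receptor gene. The 61 other genes in the runs had a summit in or within 5 kb in 8 cases, or 13.1% (6.80 to 23.8%), a comparison added after the counts were seen. The share for the receptors among them was 1.19% (0.327 to 4.24%). The 61 genes were not matched for length, with a median of 12184 bp against 1103 bp for the receptors.

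The longest stretch between neighbouring summits of chromosome 11 was 8.64 Mb, from 48056068 to 56700480, and held 54 receptors and 6 other protein-coding genes. It spans the centromere. Another stretch of 1.82 Mb, the ninth longest, held 37 receptors and 21 other genes. Together these 2 stretches held 91 receptors, 54.2% of those placed, and 27 other genes, 2.39% of those of the chromosome. The median gap between neighbouring summits of the chromosome was 71.8 kb.

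Within 50 kb of a receptor lay 13 peaks. Beside those already given, the closest were 19 tags (11.4 to 29.7) and a fold enrichment of 5.80 at 5.88 kb from OR8B12, and 19 tags with 6.25-fold at 9.26 kb from OR5B12. OR6M1 and OR6X1 flanked a peak of 24 tags (15.4 to 35.7) and 6.65-fold, at 21.6 and 29.3 kb. The peak 23.3 kb from OR56A1 had 17 tags (9.90 to 27.2), 5.62-fold, and lay in a receptor pseudogene, OR52L2P. Just past the end of the largest run, 25.5 kb from OR10A3, stood a peak of 17 tags and 5.43-fold that was 1.78 kb from NLRP10, a gene of innate immunity. OR5B2, at 23.4 kb, shared the peak of OR5B12.

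The remaining 4 peaks stood 29.96 to 45.7 kb from OR4D9, a class II gene at chr11:59511539-59520703, in a group of 8 tRNA genes. Each summit was in a tRNA gene or within 28 bp of one. The summits in TRV-TAC1-1 and TRK-TTT3-4 had 14 tags each, and the others were 28 bp from TRV-TAC2-1, with 16 tags, and 14 bp from TRF-GAA2-1, with 14 tags. Their fold enrichments were 3.99 to 5.31. The last of them overlapped by 66 bases the promoter window of a long non-coding RNA, LINC02739 (RefSeq, GRCh38.p14, chr11:59566081-59566380, minus strand). It is shown because no available receptor promoter window was overlapped, and the capitals mark the bases that the peak covers.
LINC02739: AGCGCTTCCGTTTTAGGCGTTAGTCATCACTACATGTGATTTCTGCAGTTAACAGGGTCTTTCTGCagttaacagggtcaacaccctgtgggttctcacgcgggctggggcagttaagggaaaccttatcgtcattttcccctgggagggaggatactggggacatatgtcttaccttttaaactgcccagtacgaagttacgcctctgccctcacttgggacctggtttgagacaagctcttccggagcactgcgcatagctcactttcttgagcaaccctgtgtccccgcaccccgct
The window had no match to the RUNX motif. OR4D11, at 46.2 kb, was the other receptor within 50 kb of these peaks.

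The 24 peaks in the receptor runs had a median pileup of 16 tags (12 to 39), a median fold enrichment of 4.68 and a median −log10 q of 4.34, lower than the medians of 18 tags, 5.06 and 5.90 for the 676 peaks of the chromosome outside the runs. The quartiles of the pileup, 14 and 19.5 against 15 and 22 tags, overlapped. The 13 within 50 kb of a receptor had a median pileup of 17 tags (14 to 30), a median fold enrichment of 5.43 and a median −log10 q of 6.44. The other 687 peaks of chromosome 11 had medians of 17 tags, 5.06 and 5.90. The median input level was 1.05 times the genome background for the 13 and 1.08 for the 687, and 46.2% and 39.6% of the peaks were at that background. The peak caller never used an input level under the genome-wide value, so a lower input over these genes could not be seen, and its part in the counts was not tested.

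**Figure D4:**
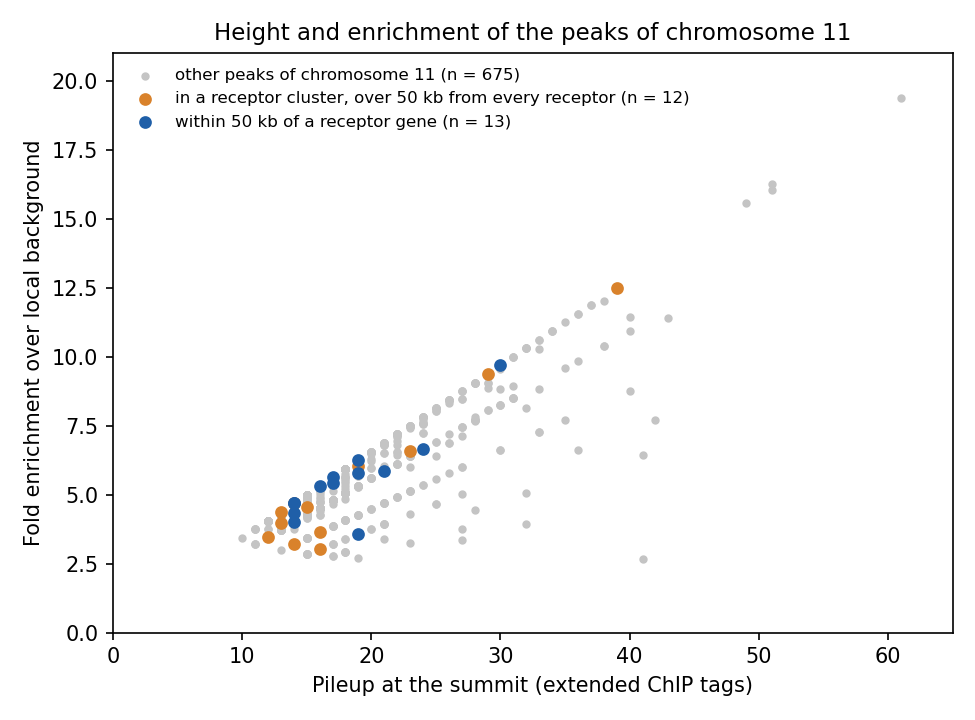
Fold enrichment against pileup in tags for the 700 peaks of chromosome 11, 1 point per peak. The 13 peaks within 50 kb of a receptor gene (blue) and 12 others inside the receptor runs (orange) lie among the other peaks (grey), with pileups of 12 to 39 tags.

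Genes that serve the receptors were looked up as a list of 18. They comprise the signalling proteins of the olfactory neuron, the chaperones that bring receptors to the cell surface, and the factors that act on the choice of a receptor. A summit in the gene or within 5 kb was found for 4 of 18, or 22.2% (9.001 to 45.2%), beside 24.9% of all protein-coding genes. The list was not matched for length. ADCY3, GNAL and EBF1, which held summits inside, are 101069, 196422 and 403997 bp long, against a median of 24469 bp for all protein-coding genes. ADCY3, the adenylyl cyclase of odour signalling, had 7, the best with 31 tags (21.1 to 44.0) and a fold enrichment of 9.99. EBF1, a transcription factor of the olfactory lineage, had 3, the best with 25 tags (16.2 to 36.9) over an input level of 2.09 times the background. GNAL, the olfactory G protein alpha subunit, had 1 with 29 tags (19.4 to 41.6) and 8.70-fold. REEP1, a receptor chaperone, had 1 with 14 tags at 4.18 kb from the gene.

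The other 14 of the list had none within 5 kb. On chromosome 11, the channel subunit gene CNGA4 lies inside the largest receptor run and was 143 kb from a summit, and OMP, the marker of mature olfactory neurons, was 29.7 kb from one. CNGA2 and CNGB1, further subunits of that channel, were 9.49 and 27.5 kb away, and ANO2, the chloride channel that amplifies the signal, was 236 kb away. For the chaperones RTP1 and RTP2 the distance was 8.34 and 13.1 kb, for RIC8B, which assists GNAL, it was 543 kb, and for STOML3 it was 12.1 kb. LHX2, a homeodomain factor at receptor enhancers, was 21.7 kb from a peak of 82 tags and 25.9-fold, and its partner LDB1 was 104 kb from one of 22 tags. EMX2, KDM1A, a histone demethylase, and CBX5, a heterochromatin protein, were 42.7, 16.8 and 24.3 kb from a summit.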

How the data were processed

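RUNX1 ChIPseq was available from 1 immunoprecipitated and 1 input library, grouped by the antibody in their labels. Per the file headers the authors called peaks with MACS 2.1.2 at a q limit of 0.05, from tags of 54 bp extended to 74 bp, with at most 1 tag per position and strand, an effective genome of 2.7 Gb, and the larger library scaled to the smaller. The ChIP library had 89501295 tags and the input 94686274 before duplicates were removed. The submitters' processing notes name Bowtie2 and hg38. Pileup, as deposited, is a signal that counts extended ChIP tags over the summit. Fold enrichment, as deposited, is a ratio, pileup plus 1 over local background plus 1, and p and q were deposited as −log10 values. These are the authors' values and were not rescaled. The input level was recovered here from pileup and fold enrichment.

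Genes came from the GRCh38.p14 RefSeq table. Its rows for chromosome 11 stand in 1 block ordered by position, and rows outside that block, which restart near 0, were taken as other sequences and left out. The table has no strand or exons, and strands came from the RefSeq promoters. Assignment of summits to genes was tested on simulated data. Python 3.11.15, pandas 2.3.3 and scipy 1.17.1 were used. Shares have 95% Wilson intervals and counts have exact 95% Poisson intervals, no test was run, and a count of 0 allows up to 3.

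Alternatives were q at most 0.01, fold enrichment not under 5, gene bodies alone, 50 kb, any overlapping base, merging within 1 kb, closer length matches, clusters split at 500 kb and windows of 50 kb in place of clusters. Added later were other genes inside the clusters, the density without 1 cluster, and these settings for the classes and the list of 18 genes. Members and lists were chosen with earlier results of these data known. Receptors were named if a summit was within 5 kb, then by distance up to 12, with the first and last of each cluster, the receptors bounding its longest stretch without a summit, the longest and the shortest. The genes of the list were all named. Other genes, and the comparisons of short genes, families and tRNA genes, were chosen after their values were seen.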

Additional observations from a re-analysis of the deposited data

How the results depend on the processing

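Of 45 alternatives over 9 results, 29 stayed within 1.5 times the reported count or within its counting interval and 16 did not. With a fold enrichment of at least 5, 1 receptor gene and 1 peak were left (OR52N4, class I), 0 class II genes, 14.1% of other genes in the length range, 1.25 summits per Mb in the clusters and 2 of 18 olfactory signalling genes, since weaker peaks are dropped by construction. For these 18 genes, the share of all protein-coding genes at that limit was not computed. In that setting 4.40% of the 5 genes nearest in length had a summit, against 0.595% of the receptors. With 50 kb on either side there were 20 receptors (6 class I and 14 class II) beside 13 peaks, and 55.3% of other genes. Of the 18 genes, 14 had a summit in that setting, beside 52.4% of all protein-coding genes. The share of other genes was 13.6% with gene bodies alone, or 4.5% when the narrower length range was also set. It was 14.5% with the narrower length range and 13.1% inside the clusters, the last chosen after seeing the data. Cluster density without OR9Q1 to OR10V1, also chosen then, was 1.69 per Mb. Each receptor share was below that of the other genes under the same setting, and this difference was not tested. For gene bodies alone in the narrower length range, the intervals of the 2 shares overlapped.

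No paired analysis was possible because the libraries, ChIP and input, are single. A pileup of 14 tags has a counting interval of 7.65 to 23.5, and the weakest peaks near receptors are of that height. How tags that match several receptor genes were placed was not given in the sources used here.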

Other observations

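The receptor genes of other chromosomes had few summits as well. Of 219 such genes, 5 had one in the gene or within 5 kb, or 2.28% (95% Wilson interval 0.979 to 5.23%), and 13 within 50 kb, or 5.94% (3.50 to 9.89%). Their median distance to a summit was 272 kb. Among the receptor pseudogenes of chromosome 11, 3 of 195 had a summit within 5 kb, or 1.54% (0.525 to 4.42%), with a median distance of 306 kb. Both sets were compared after the counts for the receptors were seen. Of all placed protein-coding genes, 24.9% had a summit in the gene or within 5 kb and 52.4% within 50 kb. These are longer, with a median of 24469 bp, against 5165 bp for the receptors of other chromosomes and 934 bp for the pseudogenes. Of the other protein-coding genes of chromosome 11 under 2 kb, 14.9% had one within 5 kb. Other pseudogenes were not counted.

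The tRNA genes past OR4D9 drew attention because all 4 peaks there stood at one. Of those 8 tRNA genes, 4 had a summit in the gene or within 100 bp, or 50% (21.5 to 78.5%). Of the 421 other placed tRNA genes of the genome, 120 did, or 28.5% (24.4 to 33.0%), a share inside the interval for the 8. For comparison, 18.9% of protein-coding genes had a summit anywhere in the gene, and these are far longer. Near-identical copies of tRNA genes share tags, and how such tags were placed was not given in the sources used here.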
